A study of Mus musculus with 38 samples.

Results

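The genes of the mitochondrial respiratory chain and ATP synthase were followed in mouse cortical collecting duct (CCD), the tubule segment in which vasopressin controls water reabsorption. Members were chosen by symbol: the numbered NADH dehydrogenase (Ndufa, b, c, s and v), succinate dehydrogenase (Sdha to Sdhd), Uqcr, Cox4 to Cox8 and Atp5 genes, and the mitochondrially encoded mt-Nd, mt-Co, mt-Cyt and mt-Atp genes, with a mean TPM (a transcript abundance normalised for transcript length and library total) of 1 or more over 24 libraries. Of 117 matching symbols in a table of 55416 genes, 92 passed and 25 lay below the minimum. The 92 members were 85 nuclear and 7 mitochondrial genes. By complex, the nuclear members numbered 38 in complex I, 4 in complex II, 8 in complex III, 17 in complex IV (Ndufa4 counted there) and 18 in complex V, and the mitochondrial members 5 in complex I, 1 in complex III and 1 in complex IV. Among the nuclear members, 4 were annotated pseudogenes, Ndufa12-ps at a mean of 111.5 TPM and Atp5pb-ps, Cox5b-ps and Ndufs5-ps at 8.09, 5.84 and 2.49 TPM.

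Complexes I to IV pass electrons from NADH and succinate to oxygen in the inner mitochondrial membrane and, except for complex II, pump protons, and complex V uses the proton gradient to make ATP. Core subunits include those that carry the redox centres or catalytic sites, and accessory subunits surround them. Some core subunits are encoded in the mitochondrial genome and the others in the nucleus, while complex II is entirely nuclear. In the collecting duct, principal cells take up water and sodium, and intercalated cells, which secrete acid or base, are known to be rich in mitochondria.

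Manually dissected CCDs had been profiled by RNA-seq after 5 days of infusion with dDAVP (desmopressin, a vasopressin analogue acting on the V2 receptor) or with saline in C57BL/6 wild-type mice, 4 libraries per group, and by ATAC-seq, which measures chromatin accessibility, in 3 libraries per group. A separate table held 24 RNA-seq libraries, 3 for each of 4 MT and 4 WT units, where MT is a mutation of the PKA target site S552 of β-catenin. In that table only the titles separated MT from WT: every label gave a dDAVP treatment and the genotype C57BL/6, and the table's name said that no vasopressin was given, so MT and WT were compared with each other and with no other group. For dDAVP library 4 the title holds conflicting numbers, CCD 4 beside dDAVP 3. Whether a unit, or a library of the infusion groups, came from 1 animal was not given, so p-values measure the spread between these samples, which may be technical. TPM keeps no depth, so the depth of each library was unknown. The label of the tissue was borne out by collecting duct genes, with Aqp2 ranking 1 of all genes at a mean of 16450 TPM and Fxyd4 ranking 6. Saline libraries 3 and 4 stood apart, with a median Spearman correlation with the other infusion libraries of 0.813 and 0.778, against 0.88 to 0.916 for the remaining 6. In bulk samples, fewer cells of a type and less RNA per cell cannot be told apart.

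Respiratory chain genes were among the most abundant transcripts of the duct. Of the 100 genes of highest mean TPM in the 24 libraries, 38 were members, and of the top 500, 76 were. The members summed to 12.5% ± 0.903 of TPM in the MT units and 12% ± 0.754 in the WT units (SD, n = 4 units each). The highest was mt-Cytb, the cytochrome b of complex III, at 9053 TPM and rank 4 of all genes. Next came Atp5b, the catalytic β subunit of ATP synthase, at 7425 TPM and rank 5, the highest nuclear member. mt-Nd1, a membrane subunit of complex I, followed with 5794 TPM at rank 8, and mt-Co1, the catalytic subunit of complex IV, with 5672 TPM at rank 10. These 4 genes stood well above the next member, Cox8a, at 3751 TPM.

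Between complexes, nuclear levels were lowest in complex I and highest in complexes III, IV and V. The median mean TPM, pseudogenes left out, was 606.9 over 36 genes in complex I and 810.6 over 4 genes in complex II. It was 1575 over 8 genes in complex III, 1476 over 16 genes in complex IV and 1406 over 17 genes in complex V. Complex I ran from 101.1 TPM (Ndufb4) to 2301 TPM (Ndufa1), with Ndufa3 at 1855 TPM. The 7 mitochondrial members had a median of 1764 TPM, against 820.2 TPM for 81 nuclear members, with a range of 1353 to 9053 TPM.

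**Figure D1:**
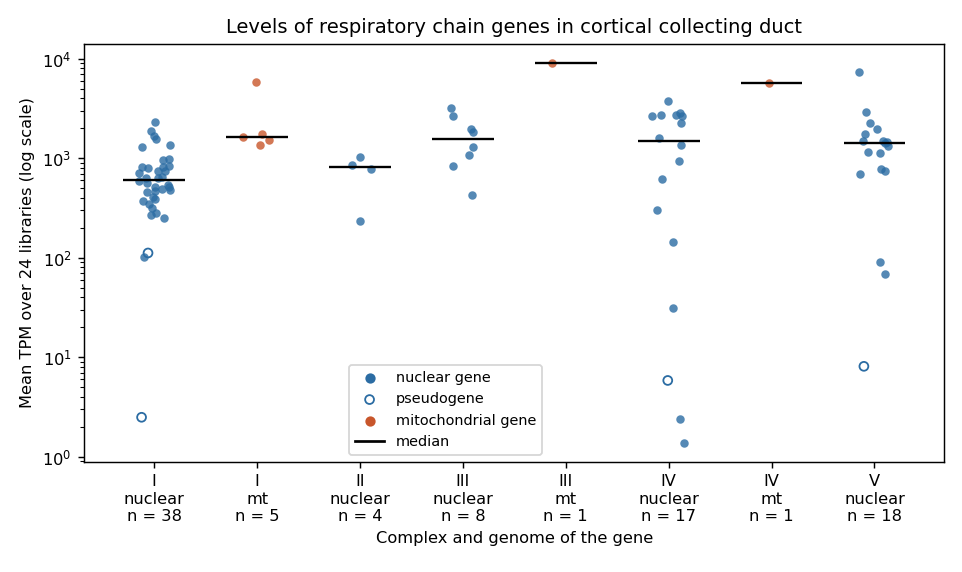
Mean TPM over the 24 libraries of the MT and WT units (vertical axis, log scale) for each of the 92 members, by complex and by the genome that encodes the gene (mt, mitochondrial); horizontal bars are medians with the 4 pseudogenes (open circles) left out. The nuclear median is 606.9 TPM in complex I and 1406 to 1575 TPM in complexes III, IV and V, and mt-Cytb (9053 TPM) and Atp5b (7425 TPM) are the highest members of the 2 genomes.

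Within each complex some subunits stood far below their partners. In complex II, Sdhd (1038 TPM), Sdha (845 TPM) and Sdhb (776.1 TPM) were close, and Sdhc, a membrane anchor like Sdhd, was at 232 TPM. In complex III the highest were the small subunits Uqcr11 (3187 TPM) and Uqcrq (2624 TPM), and the lowest were the core protein Uqcrc2 (422.4 TPM) and the Rieske iron-sulphur protein Uqcrfs1 (832.6 TPM). In complex V, Atp5b exceeded Atp5a1, its partner in the α and β ring of the F1 head, by a ratio whose median over libraries was 3.75 and which ranged from 3.35 to 3.99. The ratio therefore varied little between libraries. The genes Atp5l (68.56 TPM), Ndufb4 (101.1 TPM) and Cox7c (299.1 TPM) were low beside their partners. Their named copies held little, with Atp5l-ps1 at a mean of 0.21 TPM, Atp5l-ps2 at 0.35 TPM and Cox7c-ps1 at 0.257 TPM, and Ndufb4c was listed at 0. How reads were shared with other copies was not tested, so these levels are uncertain.

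In complexes IV and V, 1 isoform of each set carried most of the signal, and Cox7a1 and Atp5g1 were the alternative isoforms at a sizeable level. The levels of Cox4i1 (2855 TPM), Cox6a1 (2722 TPM) and Cox8a (3751 TPM) stood against means of 0.113 TPM for Cox4i2, a lung isoform, 0.169 TPM for Cox6a2 and 0.782 TPM for Cox8b, both striated muscle isoforms, and 0.275 TPM for Cox8c. Cox6b1 was at 2677 TPM and its testis isoform Cox6b2 at 31.4 TPM. Cox7b was at 934 TPM and its testis isoform Cox7b2 at 1.38 TPM, while Cox6c2 was at 2.38 TPM. Ndufa4, a subunit first assigned to complex I and now placed in complex IV, was at 2669 TPM, and its paralogue Ndufa4l2, induced by hypoxia, at 0.262 TPM. Cox7a1, known from heart and skeletal muscle, was at 615.9 TPM beside 1593 TPM for the ubiquitous Cox7a2 and 143.7 TPM for Cox7a2l, which takes part in supercomplexes. The ratio of Cox7a1 to Cox7a2 lay between 0.319 and 0.437 in all 24 libraries, with a median of 0.381. The c ring of ATP synthase is encoded by 3 genes whose mature proteins are identical: Atp5g3 was at 2934 TPM, Atp5g1 at 1469 TPM and Atp5g2 at 90.7 TPM.

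The mitochondrial genome was listed in part only. mt-Co1, mt-Cytb, mt-Nd1, mt-Nd2, mt-Nd4, mt-Nd5 and mt-Nd6 had values in all 24 libraries. mt-Co2 and mt-Co3 of complex IV, mt-Atp6 and mt-Atp8 of complex V, and mt-Nd3 and mt-Nd4l of complex I were listed at 0 in all 24 libraries. These 6 genes lie side by side on the mitochondrial genome, between COX1, which ends at base 6872, and ND4, which ends at base 11544. Their lengths ran from 204 bases (mt-Atp8) to 784 bases (mt-Co3), and the listed mt-Nd6 has 519 bases. All 22 mitochondrial tRNA genes were also listed at 0, and the ribosomal RNAs mt-Rnr2 and mt-Rnr1 averaged 4990 and 921.6 TPM in the MT units and 4861 and 686.8 TPM in the WT units. The infusion table listed the same 7 mitochondrial members. As genes that every cell uses are at 0, the zeros do not measure expression, and the sums over mitochondrial genes below cover the 7 listed members.

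Mitochondrial members varied more between libraries than nuclear members. Their median coefficient of variation over the 24 libraries was 19.5%, against 8.76% for 81 nuclear members. On the log2(TPM + 1) scale, the median SD between libraries of 1 unit was 0.205 for mitochondrial and 0.102 for nuclear members. The median SD between unit means was 0.253 for mitochondrial and 0.094 for nuclear members. It exceeded the SD between single libraries in 6 of 7 mitochondrial and in 31 of 81 nuclear members. Means of 3 libraries vary less than single libraries, so these counts understate the differences between units, also for nuclear members. Complex I was the least variable, with a median coefficient of variation of 7.19%, and complex II the most variable of the nuclear groups, at 10.7%.

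The infusion comparison asked which genes follow a lasting excess of vasopressin action. No respiratory chain gene passed an adjusted p of 0.05 (limma on log2(TPM + 1), Benjamini-Hochberg over the 5035 listed genes, which all exceeded 10 TPM in each library). Among all genes 35 passed, or 0.695%, and among the 86 members listed 0 did. At an unadjusted p below 0.05, 553 genes (11%) were found in all, 343 lower and 210 higher with dDAVP. Of the 86 members, 6 were found (6.98%), each lower with dDAVP. Groups did not overlap, with dDAVP lower, in 253 genes (5.02%) and in 5 members, Atp5a1, Atp5b, Ndufs1, Ndufa10 and Sdhc. With dDAVP higher, this held for 179 genes (3.56%) and 0 members. These shares of members lay near or below those of all genes. In the authors' deposited table, a total of 52 genes and 0 members passed, the smallest adjusted p of a member being 0.115 for Atp5a1.

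The 3 members of smallest p belonged to the catalytic parts of complexes V and I. Atp5a1, the α subunit of the F1 head, had 1602, 1436, 1570 and 1326 TPM in dDAVP libraries 1 to 4, against 1873, 1880, 2250 and 2224 TPM in saline libraries 1 to 4. Every dDAVP value lay below every saline value, with a log2 fold change of -0.47 ± 0.13 (SE) and an adjusted p of 0.21. Atp5b had 4923, 4748, 5454 and 4936 TPM with dDAVP and 6240, 6027, 7409 and 8124 TPM with saline. Here too the groups did not touch, and saline libraries 3 and 4 were the highest. Its log2 fold change was -0.46 ± 0.15, with an adjusted p of 0.263. Atp5c1, the rotating γ subunit that joins the F1 head to the membrane part, had 1014, 820.6, 744.8 and 878.3 TPM with dDAVP and 1070, 1039, 1010 and 1129 TPM with saline. Only dDAVP library 1 reached into the saline range, and the log2 fold change was -0.30 ± 0.14 with an adjusted p of 0.448. The other F1 genes, Atp5d and Atp5e, had log2 fold changes of -0.24 and -0.01.

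Ndufs1 (chr1:63143592-63176822), the largest core subunit of complex I and a carrier of iron-sulphur clusters, had 285.5, 239.8, 162.9 and 173.2 TPM with dDAVP, against 320.5, 339.2, 319 and 356.3 TPM with saline. The dDAVP libraries were widely spread and the saline libraries close together, without overlap. The log2 fold change of -0.67 ± 0.20, a fold of 0.63, was the lowest of the 86 members, with an adjusted p of 0.221. Ndufa10, an accessory subunit, had -0.29 (adjusted p = 0.482). At the other end stood the accessory subunits Ndufb1 at 0.39 ± 0.27 (adjusted p = 0.645) and Ndufa7 at 0.33 ± 0.21 (adjusted p = 0.589).

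In complex II, Sdhc (chr1:171129157-171150640) had 400.7, 380, 392.1 and 391 TPM with dDAVP, against 489.5, 415.7, 622.6 and 475 TPM with saline. The dDAVP values were nearly equal and all below the saline values, with a log2 fold change of -0.34 ± 0.15 (adjusted p = 0.448). The flavoprotein Sdha and the anchor Sdhd each had -0.30 (adjusted p = 0.508 and 0.55) and the iron-sulphur protein Sdhb -0.14 (adjusted p = 0.786). In complex IV, Cox7a1 (chr7:30184171-30186030) had 471.2, 519.8, 513.3 and 385.5 TPM with dDAVP and 989.8, 766.8, 419.7 and 870.2 TPM with saline. Saline library 3 alone fell among the dDAVP values. The log2 fold change was -0.63 ± 0.24 with an adjusted p of 0.377, and without saline library 3 it was -0.89 with an adjusted p of 0.0381, the only member called when any 1 library was left out. Its partner Cox7a2 had a log2 fold change of 0.02 ± 0.16. The ratio of Cox7a1 to Cox7a2 was 0.232, 0.335, 0.302 and 0.244 with dDAVP and 0.523, 0.43, 0.316 and 0.488 with saline, overlapping through saline library 3.

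**Figure D2:**
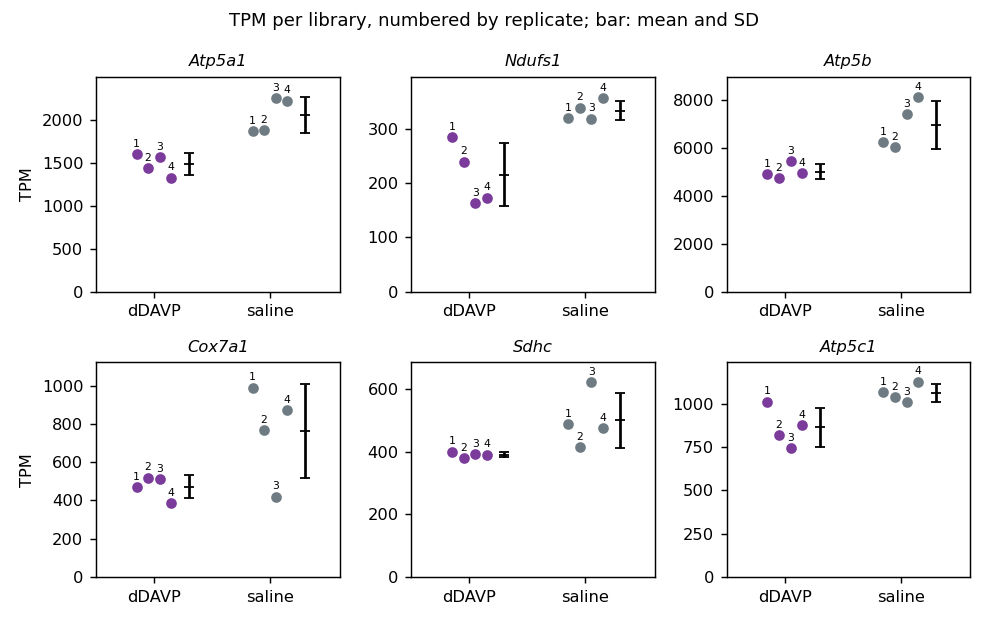
TPM per library (vertical axes from 0) of the 6 members with an unadjusted p below 0.05, for dDAVP (purple, left) and saline (grey, right); numbers are library numbers and bars the mean and SD of 4 libraries. All dDAVP values of Atp5a1, Ndufs1, Atp5b and Sdhc lie below all saline values, while saline library 3 of Cox7a1 (419.7 TPM) and dDAVP library 1 of Atp5c1 (1014 TPM) overlap the other group.

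Grouped by complex, the median log2 fold change of dDAVP over saline was -0.02 in complex I (19 of 37 genes below 0), -0.30 in complex II (4 of 4) and -0.15 in complex III (6 of 8). It was -0.03 in complex IV (8 of 13) and -0.17 in complex V (13 of 17). For comparison, the median of all 5035 genes was -0.06, with 2839 below 0. The nuclear members had a median of -0.08 and the 7 mitochondrial members of -0.15, with 7 of 7 below 0. In summed TPM, complex V made up 2.39% ± 0.183 with dDAVP and 2.8% ± 0.18 with saline (SD, n = 4 each), where dDAVP library 1 at 2.66% exceeded saline library 3 at 2.6%. Complex II made up 0.298% ± 0.0201 with dDAVP and 0.358% ± 0.0444 with saline, and complex I 3.04% ± 0.268 with dDAVP and 3.04% ± 0.392 with saline.

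By role, the medians differed within complexes I, III and V, with no test of the difference. The 7 nuclear core subunits of complex I were all below 0 with a median of -0.18, while 12 of 30 accessory genes were, with a median of 0.01; the pseudogene Ndufa12-ps (-0.08) is among the 12. In complex II the anchors Sdhc and Sdhd were as low as Sdha, and in complex IV the catalytic mt-Co1 (-0.05) lay near the nuclear median. The 5 F1 genes were all below 0 with a median of -0.30. Of them, Atp5a1 and Atp5b of the head had -0.47 and -0.46, and Atp5c1, Atp5d and Atp5e of the central stalk had -0.30, -0.24 and -0.01. The 3 c-ring genes had a median of -0.18, and the 9 other genes of complex V, of the peripheral stalk and membrane part, had one of -0.03. After rescaling by the median of ratios or quantile normalization, 4 of the 5 F1 genes were below 0, with medians of -0.24 and -0.21. In complex III, the core proteins and the Rieske protein had -0.27 over 3 genes and the small subunits -0.08 over 5. Among the accessory, peripheral stalk and membrane, and small subunits, the genes above 0 rested largely on saline libraries 3 and 4. Of these medians only the accessory one changed sign without them. Without both, 27 of 30 accessory genes of complex I were below 0 with a median of -0.15, beside -0.29 for the core. Likewise 9 of 9 peripheral stalk and membrane genes were below 0 with a median of -0.20, beside -0.29 for the F1 genes. The small subunits of complex III had -0.26, beside -0.28 for the large ones. All genes then had a median of -0.07.

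**Figure D3:**
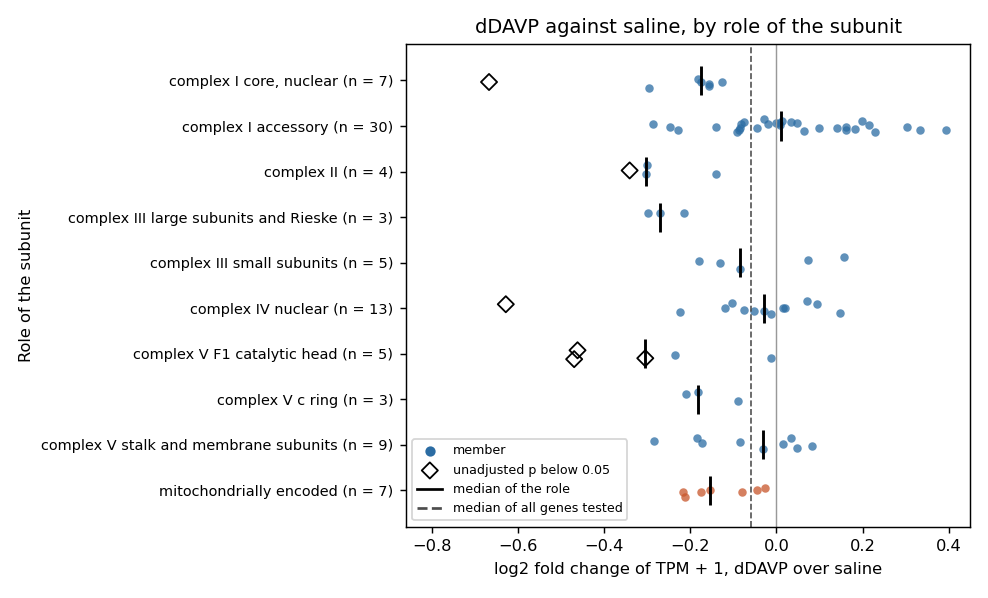
Log2 fold change of TPM + 1, dDAVP over saline (horizontal axis), of the 86 members listed, by the role of the subunit (vertical axis); points are genes, with mitochondrial genes in orange, diamonds have an unadjusted p below 0.05, short bars are medians and the dashed line is the median of all 5035 genes (-0.06). The 7 core genes of complex I and the 5 F1 genes lie below 0, and the 30 accessory genes of complex I lie on both sides around a median of 0.01. The group labelled F1 catalytic head also holds the central stalk genes Atp5c1, Atp5d and Atp5e.

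The 7 mitochondrial members had log2 fold changes of -0.22 for mt-Nd1, -0.21 for mt-Cytb, -0.17 for mt-Nd4, -0.15 for mt-Nd6, -0.08 for mt-Nd5, -0.05 for mt-Co1 and -0.03 for mt-Nd2, with adjusted p-values between 0.693 and 0.973. Together they made up 1.84%, 1.37%, 1.2% and 1.86% of TPM in the dDAVP libraries and 1.69%, 1.9%, 1.7% and 1.65% in the saline libraries. Libraries 1 and 4 with dDAVP lay within the saline range, and libraries 2 and 3 with dDAVP below it. Scaling moved the count: after rescaling by the median of ratios 5 of 7 were below 0 and after quantile normalization 4 of 7.

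Markers of the collecting duct's other cell type moved with this comparison. The 17 listed of 18 intercalated cell markers summed to 7165 to 9084 TPM with dDAVP, against 10460 to 13640 TPM with saline, with no overlap, and 16 of 17 were below 0 with a median log2 fold change of -0.66. Of them, Car12, a carbonic anhydrase, passed the test (log2 fold change of -1.0, adjusted p = 0.0378). The 9 principal cell markers summed to 70250 to 93780 TPM with dDAVP and 31830 to 35340 TPM with saline, with Aqp2 and Aqp3 called higher and 2 of 9 below 0. Aqp2, which averaged 60870 TPM with dDAVP and 20170 TPM with saline, made up most of that sum, and Scnn1b, a sodium channel subunit, stood at -0.51 on the log2 scale (adjusted p = 0.221). The 4 listed of 10 proximal tubule markers summed to 503.5 to 3805 TPM with dDAVP and 453.5 to 10650 TPM with saline, highest in saline library 3. The 1 listed of 6 thick ascending limb markers was at 20.95 to 5253 TPM with dDAVP and 84.13 to 824.9 TPM with saline. The 2 listed of 6 distal convoluted and connecting tubule markers, both below 0 with a median of -0.99, summed to 331 to 1474 TPM with dDAVP and 450.2 to 8887 TPM with saline, with Calb1 at -0.68 on the log2 scale (adjusted p = 0.258). The 3 listed of 13 endothelial, immune and fibroblast markers summed to 233.2 to 1070 TPM with dDAVP and 110.2 to 806.2 TPM with saline. The 12 listed of 19 immediate early genes, 11 of them below 0 with a median of -1.55, summed to 917 to 10310 TPM with dDAVP and 3612 to 14020 TPM with saline. The part of these cell types and transcripts in the values of the respiratory chain genes was not tested.

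Of the wider oxidative phosphorylation machinery, 0 genes in 8 lists passed the test with dDAVP. Electron carriers, coenzyme Q enzymes and chain subunits that the symbols did not match, such as cytochrome c1 of complex III, had 13 of 18 genes listed, 11 of them below 0 with a median of -0.18. Their sum was 3988 to 4614 TPM with dDAVP and 4838 to 5436 TPM with saline, without overlap. Coq8a, a kinase-like protein needed for coenzyme Q synthesis, averaged 34.6 ± 10.8 TPM with dDAVP and 94 ± 32 TPM with saline (SD, n = 4 each), a log2 fold change of -1.42 ± 0.34 with an adjusted p of 0.108. Etfdh, which passes electrons from fatty acid and amino acid oxidation to coenzyme Q, averaged 113.5 ± 34.6 TPM with dDAVP and 186 ± 30.7 TPM with saline (-0.75 ± 0.25, adjusted p = 0.288). Coq8a and Etfdh are named here for their values in the list. Assembly factors had medians of 0.04 (complex I, 10 genes) and -0.06 (complexes II to V, 25 genes). The 74 mitochondrial ribosomal proteins had -0.02, the 2 mitochondrial ribosomal RNAs -0.12, and the 15 uncoupling, supercomplex and cristae genes -0.10. The 12 genes of mitochondrial transcription and RNA stability had -0.25, and the 5 listed regulators of mitochondrial biogenesis -0.40.

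The β-catenin comparison asked which genes depend on the S552 site. No gene was called: 0 of 15013 tested, or 0%, and 0 of 92 members, the smallest adjusted p of a member being 0.969. At an unadjusted p below 0.05, 683 genes (4.55%) were found, 395 higher and 288 lower in MT, and 6 members (6.52%), each higher in MT. Groups did not overlap, with MT higher, in 279 genes (1.86%) and in 2 members, Cox7b and Cox7c. With MT lower, they did not overlap in 175 genes (1.17%) and in 0 members.

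Cox7c (chr13:86044798-86046795), a small membrane subunit of complex IV, had 314, 342.9, 398.9 and 291.5 TPM in MT units 1 to 4, against 288.4, 228.7, 244.4 and 284.1 TPM in WT units 1 to 4. The gap between the groups was small, with MT 4 next to WT 1, and the log2 fold change was 0.36 ± 0.11 (SE). Cox7b (chrX:106015700-106022450), another small subunit of complex IV, had 936.9, 1012, 1146 and 974.4 TPM in MT and 930.3, 752.3, 817.5 and 902.9 TPM in WT, a log2 fold change of 0.26 ± 0.09. MT 1 and WT 1 were nearly equal. Ndufb1, an accessory subunit of complex I, had 274.1, 277.6, 332.5 and 225.5 TPM in MT and 243.1, 219.8, 194 and 227.6 TPM in WT, which overlapped (0.32 ± 0.12). Each of these genes had an adjusted p of 0.969. Also among the 10 members of smallest p were Ndufb4 (0.15), Uqcrq (-0.19), Uqcrb (0.13) and Ndufa12 (-0.11).

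The other members of small p were mitochondrial. mt-Nd2 had 1442, 1649, 2111 and 2292 TPM in MT units, against 1366, 1081, 1529 and 1638 TPM in WT units, with a log2 fold change of 0.41 ± 0.17. mt-Nd6 had 1379, 1327, 1562 and 1804 TPM in MT and 1286, 879, 1208 and 1378 TPM in WT (0.36 ± 0.15). mt-Nd1 had 5558, 5640, 6797 and 7981 TPM in MT and 4996, 4023, 5928 and 5432 TPM in WT (0.35 ± 0.15). In all of them MT 3 and MT 4 were high and WT 2 was low, and the groups overlapped. The others were above 0 too, with 0.19 for mt-Cytb, 0.18 for mt-Co1, 0.17 for mt-Nd4 and 0.08 for mt-Nd5, all at an adjusted p of 0.969 or more. In every mitochondrial member MT 4 was the highest unit and WT 2 the lowest, so their shared sign does not count as separate observations.

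Summed, the 7 mitochondrial members made up 2.9% ± 0.465 of TPM in MT units and 2.46% ± 0.385 in WT units (SD, n = 4 each). Single libraries ran from 1.88% in MT 2 to 3.93% in MT 4, against 1.6% in WT 2 to 2.9% in WT 4. The libraries of MT 2 covered 1.88% to 2.84% and those of MT 1 2.33% to 2.71%. The nuclear members made up 9.6% ± 0.532 in MT and 9.56% ± 0.437 in WT, with a median log2 fold change of 0.01, equal to that of all genes. By complex, the nuclear medians were 0.00 in complexes I and III, 0.01 in complex IV, 0.02 in complex V and 0.03 in complex II, whose Sdha, Sdhb, Sdhc and Sdhd had 0.05, 0.03, 0.04 and -0.02. The mitochondrial members had a median of 0.19.

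**Figure D4:**
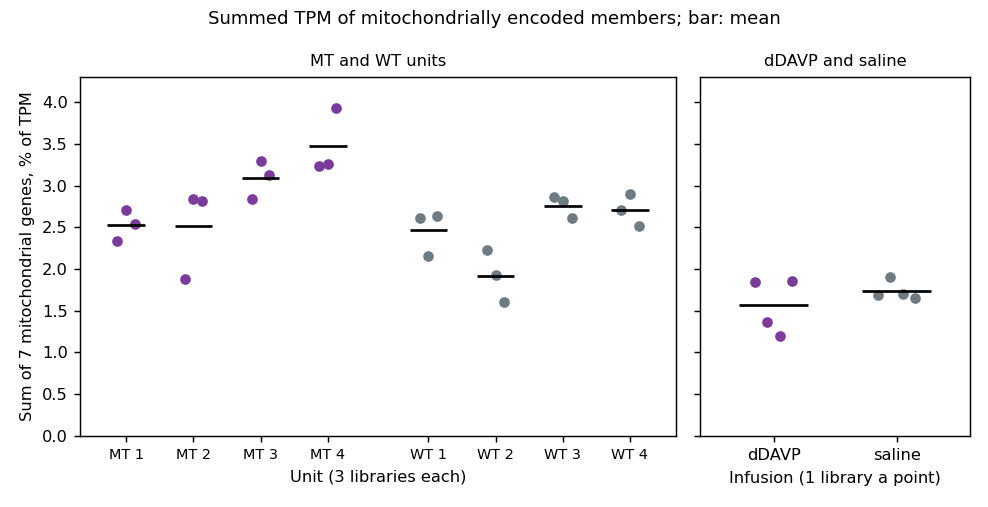
Sum of the 7 listed mitochondrial members as a percentage of TPM (vertical axis from 0), each point 1 library; on the left the 4 MT (purple) and 4 WT (grey) units with 3 libraries and their mean, on the right the 4 dDAVP and 4 saline libraries, which come from a separate table, with group means. MT 3 and MT 4 are the highest units and WT 2 the lowest, and the dDAVP libraries (1.2% to 1.86%) overlap the saline libraries (1.65% to 1.9%).

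Beside these values, transcripts of neighbouring segments and immediate early genes varied between the units. The proximal tubule markers, 9 of 10 tested and 9 of 9 below 0 with a median of -1.35, summed to 17.92 to 574 TPM in MT and 64.23 to 1296 TPM in WT. The thick ascending limb markers, 6 of 6 below 0, summed to 38.3 to 170.4 TPM in MT and 29.95 to 1653 TPM in WT. Of the distal convoluted and connecting tubule markers, 5 of 6 were tested, with 3 above and 2 below 0 and a median of 0.13. They summed to 331.8 to 637.7 TPM in MT and 224 to 1071 TPM in WT. Of the immediate early genes, 17 of 19 were tested and 16 were below 0 with a median of -0.34, summing to 2620 to 6146 TPM in MT and 3083 to 10220 TPM in WT. None of these markers was called. The intercalated cell markers were close, at 13530 to 15080 TPM in MT and 12960 to 14800 TPM in WT. The 9 principal cell markers varied more, at 28610 to 44340 TPM in MT, highest in MT 1, and 25800 to 49930 TPM in WT, highest in WT 2. Endothelial, immune and fibroblast markers summed to 258.5 to 645.1 TPM in MT and 217.3 to 681.3 TPM in WT. The part of those transcripts in the mitochondrial values was not tested. Of the lists of the wider machinery, 0 genes were called. The 79 mitochondrial ribosomal proteins had a median of -0.03, with 55 below 0, the complex I assembly factors one of 0.08 and the mitochondrial ribosomal RNAs one of 0.25, while the electron carriers, the assembly factors of complexes II to V, the transcription genes, the biogenesis regulators and the cristae genes lay between -0.02 and 0.04.

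Accessibility was called lower with dDAVP at a minority of the members' promoter peaks in the authors' deposited table, as at promoters in general. Below 0 were 72 of the members' 77 peaks and 15466 of all 18508 promoter peaks. With a mean log2 signal above 8 this held for all 3716 promoter peaks, so the members shared a shift of nearly all strong promoters. The cause of that shift was not tested. The authors' deposited table gives group means with the authors' own test, so no SD or test was added. Of 77 promoter peaks of 54 members, 25 were called lower (32.5%) and 0 higher at an adjusted p of 0.05 in the authors' deposited table, against 4774 of 18508 promoter peaks lower (25.8%) and 31 higher (0.167%). The median log2 fold change was -0.54 at the members' peaks and -0.48 at all promoter peaks of the authors' deposited table. Strong peaks were called more often: 0 of 29 member peaks with a mean log2 signal under 4, 1 of 10 from 4 to 6, 11 of 16 from 6 to 8 (68.8%) and 13 of 22 above 8 (59.1%). The shares of all promoter peaks in the same classes were 0.976%, 10.6%, 47.3% and 72.8%, so the members lay above in one class and below in the next. The ATAC-seq libraries had been depleted of mitochondrial DNA, per the labels, so the mitochondrial members have no value here.

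Calls were spread over the complexes, with 11 of 38 peaks lower in complex I, 1 of 4 in complex II, 3 of 10 in complex III, 4 of 10 in complex IV and 6 of 15 in complex V. In the authors' deposited table the smallest adjusted p-values stood at Ndufa13 (log2 fold change of -0.68, adjusted p = 3.54e-07), Ndufa11 (-0.49, 0.000174) and Atp5h (-0.68, 0.000836). Among peaks with a mean log2 signal of 4 or more, the lowest log2 fold changes of the authors' deposited table were -0.79 at Ndufa4, -0.78 at Uqcr10, -0.75 and -0.72 at Uqcr11 and -0.74 at Ndufa7. The values nearest 0 were -0.32 at another peak of Uqcr10, -0.32 at Ndufb5, -0.34 at the weaker peak of Atp5d and -0.35 at Atp5b, none of which passed. The stronger peak of Atp5d was called lower, at -0.69 (adjusted p = 0.00331) in the authors' deposited table. The promoter peak of Cox7a1 had -0.68 (adjusted p = 0.00643) and that of Ndufs1 -0.51 (adjusted p = 0.0363) in the authors' deposited table, while that of Atp5b, whose RNA values did not overlap, had -0.35 (adjusted p = 0.131). The other members with an unadjusted RNA p below 0.05 had no called peak in the authors' deposited table. These were Atp5a1 (-0.57, adjusted p = 0.0997), Sdhc (-0.64, adjusted p = 0.404) and Atp5c1 (-1.18, adjusted p = 0.316, at a weak peak). For the peaks of Ndufa11, Ndufa4, Ndufa7, Uqcr10, Ndufb5, Atp5h, Atp5a1, Sdhc and Atp5c1, the deposited table gives a transcript of the member but the name of a neighbouring gene, so these peaks may not belong to the member alone.

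**Figure D5:**
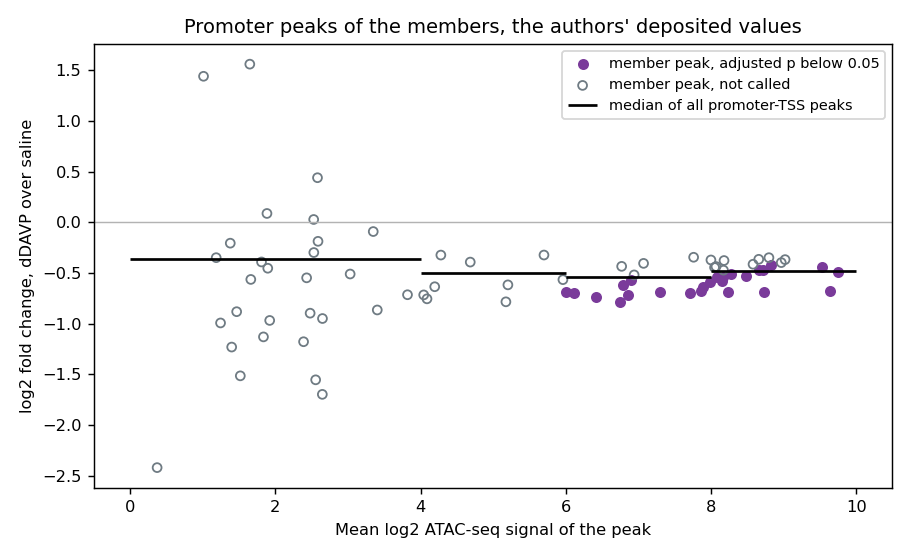
Log2 fold change, dDAVP over saline (vertical axis), against mean log2 ATAC-seq signal (horizontal axis) for the 77 promoter peaks of members in the authors' deposited table; filled points passed an adjusted p of 0.05 and horizontal lines are the medians of all promoter peaks in 4 signal classes. The 25 called peaks are all below 0 and, but for 1, have a signal above 6, close to the median of all promoters.

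Promoter sequences were set beside the RNA and accessibility values. The windows were taken around start sites and not from the peaks, and some lie outside the member's peak. RefSeq windows on GRCm38.p6 (mm10), from 250 bases before to 50 after a start site, existed for 68 members (73 windows). They were searched on both strands for 4 motifs of factors known to regulate respiratory chain genes: CCGGAAG of the ETS family (which includes GABP, or NRF2), GCATGCGC of NRF1, AAGATGGCG of YY1, and TGACGTCA of CREB, a target of PKA. The ETS motif occurred in 17 member windows (23.3%, against 8.86% of all 32851 windows), the NRF1 motif in 10 (13.7% against 2.71%), the YY1 motif in 7 (9.59% against 1.4%) and the CREB motif in 4 (5.48% against 1.79%). At least 1 motif was held by 31 of 73 member windows (42.5%) and by 13.5% of all windows. Base composition differs, with a median GC content of 57.7% and 52.7%, and among 13670 windows of like GC content the shares were 11.7%, 3.75%, 1.98% and 2.3%. A match is a string of letters and not evidence of binding. Shown are, for each complex, the motif-holding member whose promoter peak had the smallest adjusted p in the authors' deposited table, and then Cox7a1, whose window held none of the motifs. Capitals mark matches, and a match on the other strand reads as the reverse complement (CTTCCGG for ETS). The windows are Ndufa11 at chr17:56717512-56717811 (+ strand), Sdhb at chr4:140961021-140961320 (+), Uqcr11 at chr10:80406772-80407071 (- strand), Cox6b1 at chr7:30626065-30626364 (-), Atp5h at chr11:115419870-115420169 (-) and Cox7a1 at chr7:30183921-30184220 (+), each printed 5′ to 3′ on the gene's strand.
Ndufa11: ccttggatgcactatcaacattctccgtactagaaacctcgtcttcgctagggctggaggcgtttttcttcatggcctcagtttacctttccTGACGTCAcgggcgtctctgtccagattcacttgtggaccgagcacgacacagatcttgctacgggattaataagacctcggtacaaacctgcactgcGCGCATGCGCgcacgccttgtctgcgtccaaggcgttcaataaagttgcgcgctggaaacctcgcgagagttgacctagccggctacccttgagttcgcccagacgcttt
Sdhb: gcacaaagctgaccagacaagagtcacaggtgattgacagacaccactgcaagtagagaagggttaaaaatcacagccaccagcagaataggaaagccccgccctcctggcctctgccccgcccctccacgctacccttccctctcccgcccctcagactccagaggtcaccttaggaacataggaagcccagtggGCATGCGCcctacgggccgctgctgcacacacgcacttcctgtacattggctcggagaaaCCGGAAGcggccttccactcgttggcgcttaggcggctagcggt
Uqcr11: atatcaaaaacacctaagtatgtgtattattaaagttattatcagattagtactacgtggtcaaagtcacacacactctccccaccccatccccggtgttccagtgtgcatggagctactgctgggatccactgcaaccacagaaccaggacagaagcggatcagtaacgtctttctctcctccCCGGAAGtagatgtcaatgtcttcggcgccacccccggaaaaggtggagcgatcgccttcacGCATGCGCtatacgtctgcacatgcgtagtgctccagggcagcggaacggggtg
Cox6b1: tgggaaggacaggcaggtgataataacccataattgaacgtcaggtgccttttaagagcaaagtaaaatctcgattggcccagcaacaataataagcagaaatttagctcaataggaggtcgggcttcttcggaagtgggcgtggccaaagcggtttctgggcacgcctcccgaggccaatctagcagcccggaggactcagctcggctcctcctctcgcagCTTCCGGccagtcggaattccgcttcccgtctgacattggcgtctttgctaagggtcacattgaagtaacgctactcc
Atp5h: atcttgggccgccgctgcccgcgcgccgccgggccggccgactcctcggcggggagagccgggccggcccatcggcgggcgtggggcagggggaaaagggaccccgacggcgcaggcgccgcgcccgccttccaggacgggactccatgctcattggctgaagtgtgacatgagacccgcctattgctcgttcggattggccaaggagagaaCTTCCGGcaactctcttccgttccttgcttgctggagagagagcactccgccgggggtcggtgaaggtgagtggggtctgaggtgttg
Cox7a1: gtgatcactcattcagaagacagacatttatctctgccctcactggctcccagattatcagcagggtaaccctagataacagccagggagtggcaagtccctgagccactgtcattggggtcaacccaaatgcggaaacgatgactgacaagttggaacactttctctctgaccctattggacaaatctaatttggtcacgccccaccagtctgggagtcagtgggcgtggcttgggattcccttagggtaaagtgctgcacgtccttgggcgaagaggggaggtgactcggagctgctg

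Counted from the start site, the first base of the CREB match lay at -158 in Ndufa11, and those of its overlapping NRF1 matches at -60 and -58. In Sdhb the NRF1 match began at -54 and the ETS match at 7, within the transcript. Uqcr11 held an ETS match at -66 and an NRF1 match at -4, Cox6b1 an ETS match at -28 and Atp5h an ETS match at -38. The promoter peaks of Sdhb and Cox6b1 were called lower at -0.53 (adjusted p = 0.021) and -0.68 (adjusted p = 0.00994) in the authors' deposited table. Of 45 members with both a peak and a window, 22 held a motif, with 14 peaks called lower and 8 not, and 23 held none, with 8 called lower and 15 not. The 7 members with an NRF1 match were all among the called. No test was made of these counts, and signal strength, with which calls rise, was not held equal.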

How the data were processed

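RNA-seq cDNA came from the SMARTer V4 kit and was tagmented with Nextera XT, per the labels' protocols. STAR, RSEM and the build mm10 are named in the submitters' processing notes. Both RNA-seq tables hold TPM, deposited by the authors. The infusion table lists only genes above 10 TPM in each library, per the file headers. The ATAC-seq table holds, as deposited by the authors, the mean log2 signal of each group, a log2 fold change and the authors' adjusted p-value; MACS2 and DiffBind are named in the submitters' processing notes. Per-library accessibility was not used here.

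TPM was tested as log2(TPM + 1) with limma 3.58.1 (eBayes with trend, R 4.3.3), two-sided, with Benjamini-Hochberg adjustment over all genes of mean TPM of 1 or more and a threshold of 0.05. The infusion comparison used 4 dDAVP and 4 saline libraries; the β-catenin comparison used the mean of the 3 libraries of a unit, 4 MT against 4 WT. No column of per-sample values was left unmapped. The fit was tested on simulated data. Members' counts and medians are descriptions set beside all genes, with no test over the list. Fold changes on this scale understate changes of low genes.

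The named genes were the mitochondrial members, fixed isoform sets, the 10 members of smallest p in each RNA comparison, the 2 highest and 2 lowest nuclear members of each complex and the 5 lowest and 5 highest promoter peaks. One gene that this rule names is not reported here. A promoter peak is one annotated promoter-TSS in the deposited table to a transcript of the member, or to its name where the transcript was not matched; 19 members had more than 1. Promoter windows and gene positions come from RefSeq, GRCm38.p6. The members, lists, roles and windows shown were chosen with earlier results of these data known. Alternatives covered the pseudocount, the minimum TPM, scaling, the trend, a replicate block, the unit as a random block, single libraries or units left out, the adjusted p and the definition of a promoter peak.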

Additional observations from a re-analysis of the deposited data

Results flagged for a closer look

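Of 106 sets of 4 values examined for a single value far from the other 3, 5 stood out, and chance gives such a value in about 1 in 20 groups. In dDAVP library 4, Sdha was at 502.7 TPM, against 684 to 711.2 TPM in the other dDAVP libraries. In the same library mt-Nd5 was at 704 TPM, against 465 to 493.1 TPM. This is the library whose title gives 2 different numbers. In MT unit 1, Ndufa12 was at 735.4 TPM, against 815.8 to 827.9 TPM in the other MT units, and the nuclear members summed to 88020 TPM, against 98290 to 99220 TPM. In WT unit 2, all members summed to 108500 TPM, against 123400 to 124900 TPM in the other WT units.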

How the results depend on the processing

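The count of members called with dDAVP was 0, and 0 to 1 when single libraries were left out; the 1 was Cox7a1 without saline library 3 (-0.891, adjusted p = 0.0381). With MT it was 0 under every alternative run. Over the alternatives, the median log2 fold change ran from -0.201 to 0.006 (nuclear) and -0.246 to -0.056 (mitochondrial) with dDAVP, and from -0.036 to 0.038 and 0.092 to 0.264 with MT.

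Of the 77 promoter peaks, 25 were lower at an adjusted p of 0.05 (32.5%, against 25.8% of all promoter peaks) and 11 at 0.01. With only the strongest peak of each member, 25 of 54 were lower (46.3%). Among peaks centred within 1000 bp of a RefSeq start site, a definition chosen after seeing the data, 52 of 147 were lower. The share of all promoter peaks was not computed under these alternatives, so their counts describe the members only. A definition using start sites of the table was not run because the table gives none.

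Signs turned for members near 0. With dDAVP, mt-Nd2 became 0.034 (median of ratios), 0.047 (quantile normalization) and 0.187 (without saline 3 and 4 together, chosen after seeing the data), mt-Co1 became 0.015 (median of ratios) and 0.043 (quantile), and mt-Nd5 became 0 (quantile). Leaving out single libraries gave -0.176 to 0.118 for mt-Nd2 and -0.191 to 0.088 for mt-Co1. With MT, median of ratios gave Sdhb -0.013 and Sdhc -0.009, quantile normalization mt-Co1 -0.032, and the median library of a unit Sdhc -0.023. Leaving out single units gave -0.046 to 0.167 for mt-Nd5, -0.01 to 0.109 for Sdha, -0.032 to 0.097 for Sdhb, -0.017 to 0.065 for Sdhc and -0.076 to 0.022 for Sdhd. The causes were not tested.

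With the number in the titles as a replicate block, 8 genes were called with dDAVP in place of 35 and 0 members, and with MT 0 genes and 0 members. Same-numbered samples correlated at 0.19, 0.23, 0.087 and -0.149 (dDAVP and saline) and at -0.028 to 0.04 (MT and WT), and best with their own number in 3 of 4 pairs (dDAVP and saline) and 0 of 4 (MT and WT). Not every pair passed 0.1 and no label gives a shared source, so the numbers were not taken as pairs. Leaving out single libraries gave 7 (dDAVP 3) to 47 (saline 4) genes called with dDAVP, and a fit without trend gave 18. With MT, single units left out gave 0 to 5 genes, and the unit as a random block 1 gene, none of them members. Depth is unknown, and 4 samples per group limit the precision.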
